A study of Mus musculus with 59 samples.

Results

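Liver gene expression was compared between mice that drank water with 100 ppb sodium arsenite for 5 weeks and mice that drank water without it, both fed LRD-5001, a standard rodent chow. The labels alone chose the arrays: 5 exposed and 5 control arrays, which are 10 of the 59 arrays and 2 of the 12 groups in the study. All non-control probe sets were tested, 45037 of 45101, and the spread came from the 20 arrays of mice on this chow. The other arrays on the chow are from mice given 10 ppb sodium arsenite for 5 weeks, 5 with it in drinking water and 5 with it in food. The same 100 ppb in water was also given for 5 weeks to mice on AIN-76A, a diet made from purified ingredients, with 4 exposed and 5 control arrays. All of these mice were C57BL/6 males, 6 weeks old at the start, with 2 weeks on their diet before treatment, and none of them was injected. The titles of the 100 ppb arrays on chow give the dose and the route but no agent, which the source label names as sodium arsenite. Arrays of a group are labelled as biological replicates, and what separates one mouse from the next beyond that is not stated, so a p-value here speaks of the spread among these arrays. Neither the time of day at which livers were taken nor the arsenic content of either diet is given in the sources used here.

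Inorganic arsenite enters liver cells through aquaglyceroporins such as Aqp9, binds thiols such as glutathione, and is methylated by the enzyme As3mt with S-adenosylmethionine as the methyl donor. At toxic doses it is known for inducing heme oxygenase, metallothioneins and genes driven by the oxidant sensor Nrf2. The liver also runs a circadian clock in which BMAL1, the product of Arntl, pairs with CLOCK or NPAS2 on E-box sequences and drives the repressors of the Per and Cry families. The same complex drives Dbp and Tef, 2 transcription factors that bind D-box sequences in genes of liver metabolism.

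Judged by the brightest probe set of each gene, the clock genes Arntl and Tef, the pyrimidine salvage gene Upp2 and the transcription regulator Id3 lay furthest from the control livers in relation to their spread, but no probe set passed the threshold. With limma and Benjamini-Hochberg adjustment over all probe sets, 0 of 45037 probe sets (0%) had an adjusted p under 0.05, and the smallest adjusted p was 0.652. An unadjusted p under 0.05 was found for 1506 probe sets, or 3.34%, where 5% would give 2252. Counted over genes, with the brightest probe set of each of 18193 genes, 387 were higher at an unadjusted p under 0.05 (2.13%) and 319 were lower (1.75%). The 5 exposed and 5 control arrays did not overlap for 71 genes that were higher (0.39%) and 68 that were lower (0.374%). These shares are the background for every count of list members below, and since nothing passed, each gene below is given by its values.

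The size of difference that this design could call was large. A lone probe set needed an unadjusted p of 1.11e-06, a difference of 6.86 standard errors (SE). At the median SE of 0.16 among the 11585 probe sets with a mean log2 value of at least 4 over the 59 arrays (those below are called dim here), that is a difference of 1.12, where a difference of 1 on the log2 scale is a doubling. Only 20 genes differed by more than 1 in either direction, 11 higher and 9 lower, and their SEs ran up to 1.29 for Fos, an immediate early gene.

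**Figure D1:**
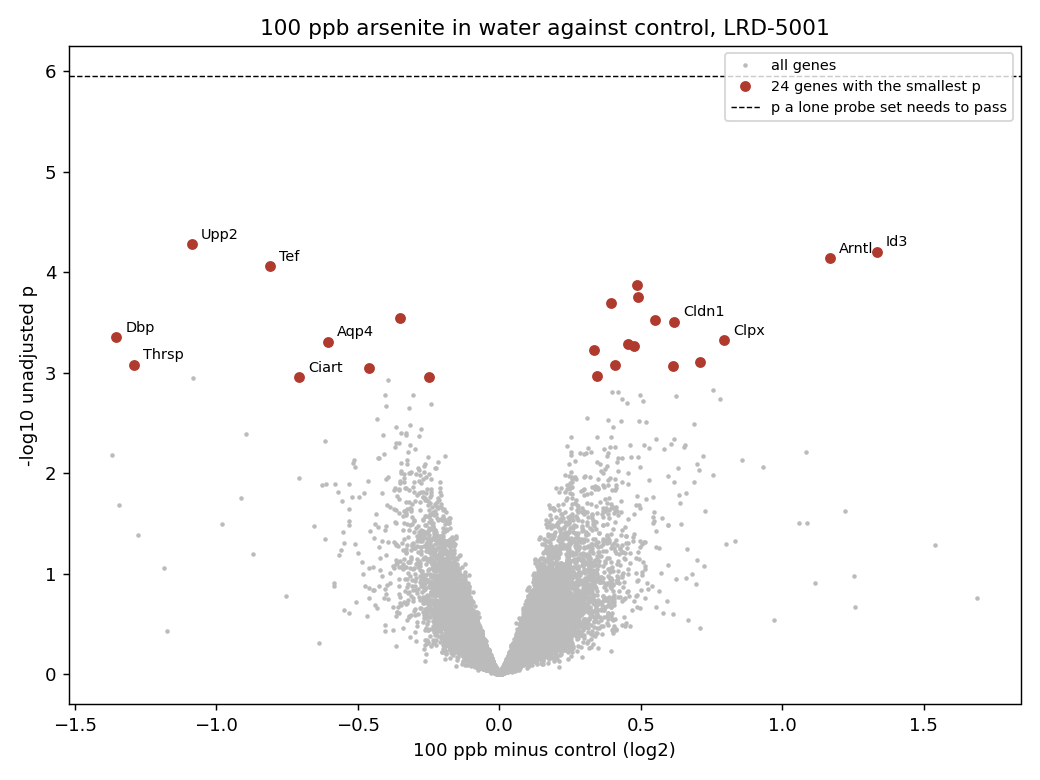
Difference between exposed and control livers on LRD-5001 (log2, horizontal axis) against -log10 of the unadjusted p (vertical axis) for 18193 genes, with the 24 genes of smallest p in red and the p that a lone probe set needs as a dashed line. Upp2, Id3, Arntl and Tef lie highest, and every gene is below the dashed line.

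The deposited values are log2 expression values, and the array medians on chow lay between 2.43 and 2.56. A first component held 40.7% of the variance within groups, and by rule the array with the lowest score in each chow group was set apart. These were control B, exposed D, 1 array given 10 ppb in water and 1 given 10 ppb in food. Their scores ran from -64.9 to -35.3, and those of the other 16 arrays from 0.63 to 28.2. The upper quartile of these 4 arrays was on average -0.25 on the log2 scale relative to the other 16. The sign of the component was set to follow the upper quartile, so the direction of this difference is partly built in. Without them, 0 probe sets passed the adjusted threshold and 2287 probe sets, or 5.08%, had an unadjusted p under 0.05. The labelled tissue matched its markers, since all 12 hepatocyte genes had a mean of at least 4.

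Among the clock genes, the 250 bases before the transcription start are shown for the 4 genes with an unadjusted p under 0.05 that hold an E-box or a D-box there, because these are the sequences through which the clock is known to act. They are from RefSeq on build GRCm38.p6, before the most upstream start listed (Tef and Per1 have 2 starts), written 5′ to 3′ on the strand of the gene, with the motif in capitals. Ciart (chr3:95882229-95882478, minus strand) holds 3 E-boxes, whose first bases lie 116, 58 and 44 bases before the start. Tef (chr15:81802423-81802672, plus strand) and Per1 (chr11:69098699-69098948, plus strand) hold 1 E-box each, 127 and 166 bases before it, and Per3 (chr4:151044666-151044915, minus strand) holds 2 D-boxes, 205 and 158 bases before it.
Ciart: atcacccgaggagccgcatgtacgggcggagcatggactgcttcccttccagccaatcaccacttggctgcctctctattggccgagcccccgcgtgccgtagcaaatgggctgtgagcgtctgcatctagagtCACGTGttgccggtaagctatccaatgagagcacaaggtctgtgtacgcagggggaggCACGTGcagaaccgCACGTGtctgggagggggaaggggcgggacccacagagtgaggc
Tef: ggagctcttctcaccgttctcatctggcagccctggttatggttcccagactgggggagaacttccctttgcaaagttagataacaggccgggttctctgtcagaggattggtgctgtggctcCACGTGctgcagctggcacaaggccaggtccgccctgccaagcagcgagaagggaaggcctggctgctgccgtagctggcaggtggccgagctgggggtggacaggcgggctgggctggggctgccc
Per1: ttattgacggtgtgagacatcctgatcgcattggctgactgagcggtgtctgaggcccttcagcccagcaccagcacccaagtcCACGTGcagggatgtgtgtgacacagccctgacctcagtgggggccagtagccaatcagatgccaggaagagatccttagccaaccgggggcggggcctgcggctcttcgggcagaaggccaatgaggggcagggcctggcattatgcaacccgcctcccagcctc
Per3: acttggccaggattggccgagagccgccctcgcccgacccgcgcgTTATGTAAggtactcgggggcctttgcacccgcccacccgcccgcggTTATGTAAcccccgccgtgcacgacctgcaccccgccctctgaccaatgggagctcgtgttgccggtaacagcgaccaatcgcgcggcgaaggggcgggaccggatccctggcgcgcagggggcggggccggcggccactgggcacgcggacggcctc
The motifs searched on both strands were the E-box CACGTG, the D-box as TTACGTAA or TTATGTAA, and the core of the element bound by ROR and REV-ERB receptors as TAGGTCA or TGGGTCA, and none of these overlaps another. Of 32851 RefSeq promoters, 6.02% hold the E-box, 0.931% the D-box and 5.38% the ROR core in this window. A window was found for 19 of the 22 clock genes: 5 hold an E-box, 1 a D-box and 1 the ROR core. Of the 9 with a window and an unadjusted p under 0.05, 3 hold an E-box, 1 a D-box and 0 the ROR core. A match is a description of the letters and says nothing of binding in these livers.

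The clock list held 22 measured genes, of which 2 were higher and 8 lower at an unadjusted p under 0.05, against 2.13% and 1.75% of all genes. Arntl and Npas2 were the 2 higher genes, and Tef, Dbp, Ciart, Usp2, Per3, Per1, Noct and Bhlhe40 the 8 lower ones. No clock gene passed the adjusted threshold, and the list was included with earlier results of these data known. The exposed and control arrays did not overlap for 1 higher and 4 lower members, against 0.39% and 0.374% of all genes. The median difference over the list was -0.18, against 0.009 over all genes.

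Arntl encodes BMAL1, the DNA-binding activator of the clock. Its values were 3.21, 2.93, 3.21, 3.33 and 2.88 in control arrays B to F and 3.94, 4.18, 4.17, 4.19 and 4.92 in exposed arrays A, B, D, E and F. Every exposed array lay above every control array, and exposed array F was the highest. The difference was 1.17 (SE 0.24, n = 5 and 5, limma, unadjusted p = 7.24e-05, adjusted p = 0.652). This probe set is not dim by its mean of 4.67 over the 59 arrays. On chow its group means were 3.11 in controls, 3.77 and 3.94 at 10 ppb in water and food, and 4.28 at 100 ppb. A second, dim probe set of Arntl differed by -0.038. Of the partners of BMAL1, Npas2 was near the floor of the arrays at 2.19 ± 0.18 in controls and 2.42 ± 0.075 in exposed livers (SD, n = 5 each), and Clock was 5.02 ± 0.32 and 5.34 ± 0.27, with overlapping arrays.

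Dbp, the D-box activator whose mRNA is among the most strongly rhythmic in liver, was 8.56, 9.44, 8.96, 9.22 and 9.51 in the control arrays. In the exposed arrays it was 7.74, 7.88, 8.11, 7.98 and 7.21, so all 5 lay below the lowest control. Its difference of -1.35 (SE 0.32) had an unadjusted p of 0.00044 and an adjusted p of 1 in limma, and its second probe set differed by -1.41. Tef, a D-box activator of the same family, was 7.59, 7.79, 7.78, 7.76 and 8.12 in controls and 7.005, 7.17, 7.03, 6.83 and 6.97 in exposed livers. The groups did not overlap, and the difference was -0.81 (SE 0.17). A second probe set of Tef, dim and with overlapping arrays, differed by -0.85, and another dim one by -0.085. Hlf, another activator of this family, was 4.89 ± 0.55 in controls and 4.90 ± 0.17 in exposed livers.

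Among the repressors and outputs of the clock, Ciart, a repressor that acts on the BMAL1 complex, was 3.88, 3.28, 3.52, 3.49 and 4.02 in control and 3.25, 2.88, 2.87, 2.92 and 2.73 in exposed arrays. These groups did not overlap, although the highest exposed array and the lowest control array were close. The Ciart probe set was dim, with a mean of 3.10. Usp2, a deubiquitinase with a rhythmic transcript, was 4.54, 6.09, 5.42, 5.46 and 5.74 in control and 4.11, 4.21, 4.40, 3.84 and 3.85 in exposed arrays. The control spread of Usp2 came mostly from array B, the control that stood apart, and even this array lay above the exposed ones. Its difference was -1.37 (SE 0.45), with -2.20 (SE 0.67) on a second, dim probe set whose arrays overlapped. Per1 differed by -0.53 (SE 0.20) and Per3 by -0.71 (SE 0.25), both with overlapping arrays. The Per1 probe set was dim, with a mean of 3.78. Only 3 of the 6 probe sets of Per3 were lower, all 6 dim. Noct, a rhythmic phosphatase of nicotinamide dinucleotides, differed by -1.28 with a wide SE of 0.58, and Bhlhe40, a repressor that competes at E-boxes, by -0.55 (SE 0.26).

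The remaining 12 clock genes had unadjusted p-values over 0.05 on their brightest probe sets. The REV-ERB receptor genes Nr1d1 and Nr1d2, which repress Arntl, differed by -0.046 (SE 0.30) and -0.19 (SE 0.28), and Rora, which activates it, by 0.01 (SE 0.15). Cry1 differed by 0.33 and Cry2 by -0.28, with SEs of 0.18 and 0.15. Per2 was near the floor at 2.62 ± 0.31 in controls, and its difference was -0.20 (SE 0.18). Its other 2 probe sets, about as dim, differed by -0.42 (SE 0.14, unadjusted p = 0.0071 in limma) and -0.29 (SE 0.12, unadjusted p = 0.029).

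The groups given 10 ppb share the control arrays with the 100 ppb group, so their values are set side by side only. Dbp was -0.77 relative to control at 10 ppb in water and -1.08 at 10 ppb in food, beside -1.35 at 100 ppb. Tef was -0.56, -0.77 and -0.81 in the same order, and Arntl was 0.65, 0.83 and 1.17. In the 10 ppb water arrays Arntl was 3.65, 3.56, 3.49, 4.51 and 3.62, all above the highest control at 3.33. Food array B, at 2.99, lay within the control range of Arntl. Single arrays varied widely at 10 ppb, where Dbp was 9.29, 8.35, 8.81, 7.44 and 7.93 in the water arrays A, C, D, E and F, and 9.17, 8.05, 7.41, 8.09 and 7.55 in the food arrays B to F. Water arrays A and D and food array B lay within the range of the controls for Dbp, while the lowest of each group lay with the 100 ppb arrays. Usp2 was 6.24, 4.33, 5.05, 4.32 and 3.90 in the water arrays and 6.26, 4.29, 4.30, 3.32 and 3.69 in the food arrays, in the same order, with water array A and food array B again the highest.

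On AIN-76A, the control mice had clock genes at other levels to begin with. Dbp was 5.85 ± 1.60 (SD, n = 5) in AIN-76A controls against 9.14 ± 0.39 (SD, n = 5) in chow controls, and Arntl 4.88 ± 0.38 against 3.11 ± 0.19. For 9 of the 10 clock genes with an unadjusted p under 0.05, the mean at 100 ppb on chow lay between the means of the chow controls and of the AIN-76A controls. The same chow control arrays chose these genes and form one end of that range, so this count is partly built in. The share over all genes was not computed, and no shift toward the AIN-76A levels was tested. At 100 ppb on AIN-76A, Dbp was -1.83 (SE 0.75) relative to its own control, Tef 0.22 (SE 0.21), Ciart 0.29 (SE 0.19) and Per1 0.80 (SE 0.26). Of the 10 genes, 6 had the same sign on both diets. The difference between the diets was tested by an interaction term, with an adjusted p of 0.56 for Ciart, 0.56 for Per1 and 0.56 for Tef, the clock genes with the smallest p in that test.

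**Figure D2:**
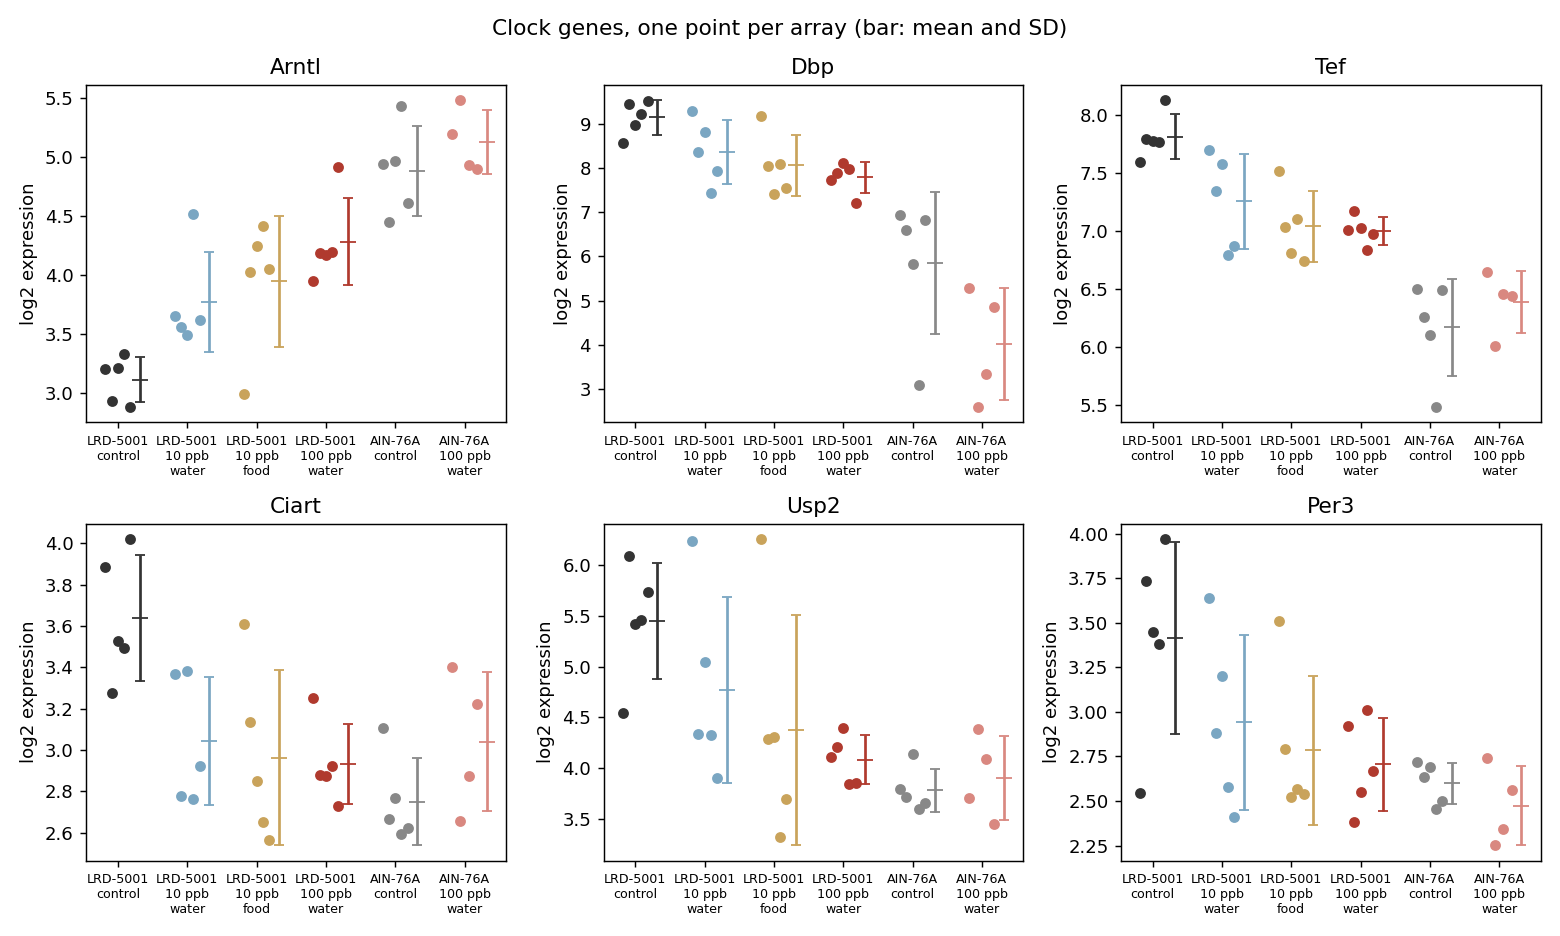
Log2 expression of 6 clock genes in each array (points) of 6 groups, with the mean and SD of the group as bars, for mice on LRD-5001 and AIN-76A. On chow, the 5 arrays at 100 ppb lie above all controls for Arntl and below all controls for Dbp, Tef, Ciart and Usp2. The 10 ppb arrays spread over both ranges, although for Arntl all those in water also lie above the controls.

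The clock counts varied with the setting. With a filter at a mean of 4 over the chow arrays, which 13 of the clock genes passed, 0 were higher and 4 lower at an unadjusted p under 0.05, and with the spread of all 39 arrays exposed for 5 weeks, 1 was higher and 5 lower. Arntl and Npas2 did not pass the filter. Without the 4 arrays that stood apart, 3 were higher and 9 lower. The share of all probe sets tested at an unadjusted p under 0.05 also moved, from 3.34% in the main fit to 5.08% without these 4 arrays. It was 2.74% with the filter and 2.34% with the spread of 39 arrays.

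Outside the clock, Upp2 had the smallest p among the brightest probe sets of all genes. It encodes a uridine phosphorylase of pyrimidine salvage in liver. Its values were 9.12, 9.52, 9.52, 9.61 and 9.83 in control and 8.55, 8.41, 8.50, 8.50 and 8.21 in exposed arrays, with no overlap and little spread among the exposed livers. The difference was -1.09 (SE 0.21, limma adjusted p = 0.652), with -1.14 and -0.63 on its other probe sets. Upp2 passed when the spread came only from the 10 arrays compared, with an adjusted p of 0.0219 in limma for both bright probe sets, which were then the 2 probe sets called. It was -0.46 at 10 ppb in water, -0.78 at 10 ppb in food and -1.17 (SE 0.49) at 100 ppb on AIN-76A.

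Id3, which encodes an inhibitor of helix-loop-helix transcription factors, was 6.47, 6.40, 6.34, 6.85 and 5.90 in control arrays. It was 8.21, 7.89, 8.00, 6.87 and 7.68 in exposed arrays, of which array E lay just above the highest control. The difference of 1.34 (SE 0.27) was the largest among the 15 higher of the 24 genes with the smallest p, and its adjusted p was 0.652 in limma. On AIN-76A the exposed arrays of Id3 were -0.35 (SE 0.36) relative to control, and the interaction had an adjusted p of 0.667.

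Thrsp, known as Spot 14, encodes a nuclear protein that promotes fatty acid synthesis and is regulated by thyroid hormone and carbohydrate intake. It was 10.92, 10.87, 10.78, 10.83 and 11.46 in control and 9.73, 9.23, 9.62, 9.59 and 10.23 in exposed arrays. The groups did not overlap, with control F the highest array and exposed F the highest of its own group. The difference was -1.29 (SE 0.33, limma adjusted p = 1), with -1.35 on a second bright probe set and -0.028 on a dim one. At 10 ppb it was -0.96 in water and -0.91 in food, and on AIN-76A -1.96 (SE 0.57), where the 4 exposed arrays ran 12.01, 8.08, 7.16 and 9.96.

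Of the 24 genes with the smallest p, 15 were higher and 9 lower, 20 had arrays that did not overlap, and 16 had a mean of at least 4. Because p chose them, these counts describe the choice. Clpx, the ATPase subunit of a mitochondrial protease, was 8.19 ± 0.19 in controls and 8.98 ± 0.16 in exposed livers (SD, n = 5 each), and its arrays did not overlap. Cldn1, a tight junction protein, was 7.31, 7.93, 7.66, 7.75 and 7.33 in control and 8.36, 8.31, 8.04, 8.27 and 8.07 in exposed arrays. Its difference of 0.62 (SE 0.14) on chow stood beside -0.61 (SE 0.22) on AIN-76A, with an adjusted p of 0.461 for the interaction. Gldc, the decarboxylase of the glycine cleavage system, differed by only 0.33 (SE 0.082) but had exposed arrays within a narrow band of 8.51 ± 0.043 (SD, n = 5). Eif4enif1, a transporter of the translation factor eIF4E, differed by 0.55 (SE 0.13), Pld1, a phospholipase D, by 0.48 (SE 0.12), and Dtx4, a Deltex ubiquitin ligase, by 0.61 (SE 0.16). The water channel gene Aqp4 differed by -0.60 (SE 0.15), and the transporter gene Slc16a5 by -0.46 (SE 0.12), both near the floor of the arrays. On their brightest probe sets Naa25, Prkcd, Itga4, Fam20a, Irgq, Clec16a and Trim32 were also higher, and Fgf11 and C530044C16Rik lower, with differences between -0.35 and 0.71. Other probe sets of some of these genes did not share the direction: 3 of the other 4 for Itga4 were below 0, one by -0.20 (SE 0.08), as were the second ones of Irgq (-0.03) and Clec16a (-0.05), and the second one of Fgf11 was above 0 (0.06).

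The genes that handle arsenic showed no member with an unadjusted p under 0.05, 0 of 20, and the median difference was 0.020. The share over all genes was 3.88%, and 21 of the 43 lists had 0 such members. A count of 0 in a list of this size therefore does not set it apart. As3mt, the arsenite methyltransferase, was 6.09, 6.34, 6.66, 6.43 and 6.33 in control and 6.29, 6.32, 5.41, 5.96 and 6.98 in exposed arrays. Exposed arrays D and F were its lowest and highest, the groups overlapped, and the difference of -0.18 had a 95% interval of -0.60 to 0.24. Gsto1, which reduces pentavalent arsenic, differed by 0.073 (95% interval -0.10 to 0.25). Aqp9, the main aquaglyceroporin of hepatocytes, was 10.51 ± 0.14 in controls and 10.51 ± 0.099 in exposed livers (SD, n = 5 each), with a 95% interval of -0.20 to 0.21.

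Glutathione synthesis and export genes lay in the same range. Gclc and Gclm, the subunits of the rate-limiting enzyme of glutathione synthesis, differed by 0.21 (95% interval -0.13 to 0.54) and 0.14 (-0.12 to 0.39). Abcc2, an exporter of arsenic conjugates into bile, differed by -0.17 (-0.43 to 0.083) and Txnrd1, a thioredoxin reductase, by 0.22 (-0.044 to 0.48). Of the 20 intervals, the widest, for the glucose transporter gene Slc2a1, ran from -0.64 to 0.94.

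**Figure D3:**
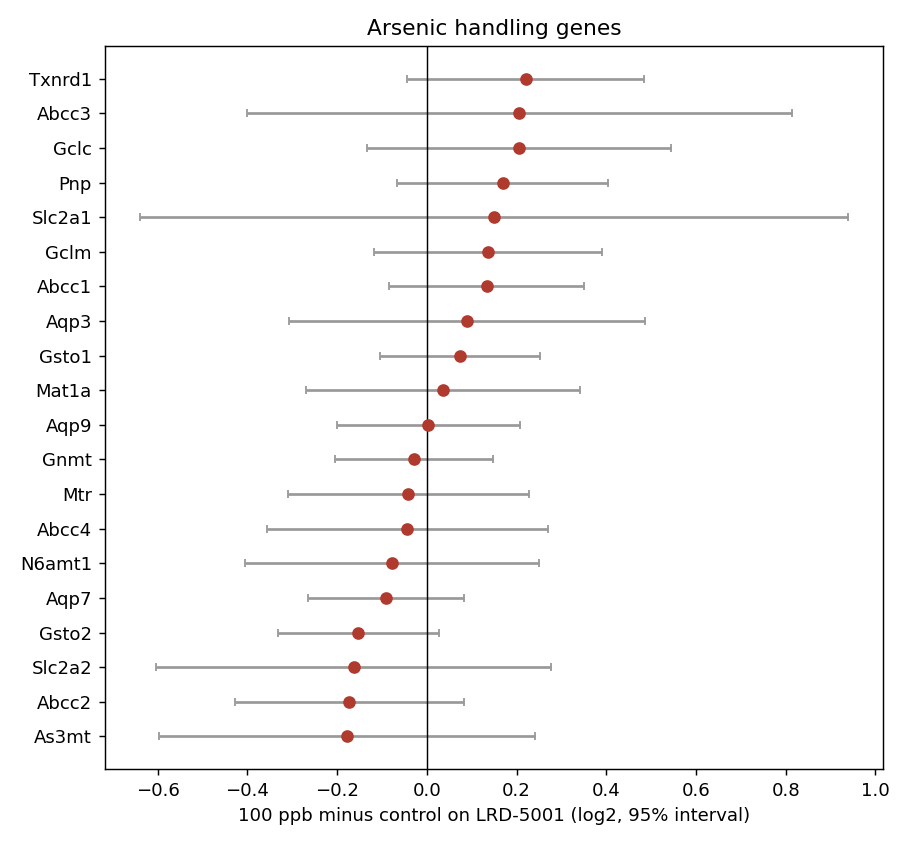
Difference between exposed and control livers on LRD-5001 (log2, horizontal axis) for the 20 arsenic handling genes, with points for the fitted difference and lines for its 95% interval. Every interval includes 0, and the points run from -0.18 for As3mt to 0.22 for Txnrd1.

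Stress genes known to respond to arsenite at toxic doses had no member with an unadjusted p under 0.05: 0 of 28 in the Nrf2 and glutathione list and 0 of 17 in the heat shock and metal response list. Hmox1, heme oxygenase 1, differed by -0.067 (SE 0.20) and Nqo1, a quinone reductase driven by Nrf2, by -0.13 (SE 0.20). Metallothionein genes were less precise, with 0.35 (SE 0.58) for Mt1 and 0.39 (SE 0.71) for Mt2. The cytochrome P450 (30 genes) and conjugation (15 genes) lists also had 0 such members. With 3.88% of all genes at such a p, and 21 of the 43 lists at 0, these counts do not set the lists apart.

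In lipid and sugar metabolism, 0 of 28 lipogenesis genes were higher and 2 lower at an unadjusted p under 0.05, Thrsp and the phosphatidate phosphatase gene Lpin2 (-0.37, SE 0.14). The median over that list was -0.15, with 20 of 28 below 0, and Fasn, fatty acid synthase, differed by -0.45 (SE 0.25). Of 20 gluconeogenesis and glycogen genes 3 were lower. Gys2, the glycogen synthase of liver, was 7.92, 8.57, 8.21, 8.38 and 8.46 in control and 7.81, 7.87, 7.59, 7.65 and 7.77 in exposed arrays, which did not overlap, and its difference was -0.57 (SE 0.21). Slc37a4, the glucose 6-phosphate transporter, differed by -0.26 (SE 0.10) and Crtc2, a CREB coactivator, by -0.23 (SE 0.11).

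Insig2, which holds the sterol sensor SCAP in the endoplasmic reticulum, was the only cholesterol gene of 22 with an unadjusted p under 0.05. Its brightest probe set was 9.25, 9.26, 9.17, 8.85 and 8.88 in control and 9.92, 9.56, 9.22, 9.57 and 9.89 in exposed arrays, with exposed array D inside the control range. The difference there was 0.55 (SE 0.17), and on a second probe set, the one with the smallest p of all 45037 (unadjusted p = 4.05e-05, limma adjusted p = 0.652), it was 0.78 (SE 0.15). On AIN-76A Insig2 differed by -0.019 (SE 0.24). Among 19 bile acid genes, Nr0b2, the repressor SHP, differed by 0.48 (SE 0.19) and Nr1h4, the bile acid receptor FXR, by -0.37 (SE 0.18). Herpud1, a gene of the unfolded protein response, differed by -0.43 (SE 0.14), while 17 of the 21 genes in its list were above 0.

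Acute phase genes were mostly above 0, 23 of 25, with a median of 0.20 and 2 members higher at an unadjusted p under 0.05, the fibrinogen gene Fgg (0.16, SE 0.071) and Crp (0.19, SE 0.089). Among all genes 52.9% were above 0, and 62.9% among those with a mean of at least 4. The largest acute phase differences were the least precise. Lcn2, lipocalin 2, was 2.60, 2.97, 2.44, 3.43 and 3.32 in control and 2.39, 5.20, 4.29, 3.52 and 7.80 in exposed arrays, so that exposed array F alone was over 6 and array A was below every control. Its difference of 1.69 had an SE of 1.20. The serum amyloid genes Saa1 and Saa2, whose probe sets can share transcripts of near-identical sequence, differed by 1.25 (SE 0.74) and 1.26 (SE 0.99). At 10 ppb, against the same control arrays, the median of the acute phase list was 0.23 in water and 0.41 in food. There Lcn2 differed by 2.12 in water and 4.63 in food, and Saa1 by 1.86 and 2.56, so these differences were not particular to 100 ppb.

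In the other immune lists, 3 of 24 inflammatory signalling genes were higher at an unadjusted p under 0.05: Stat3, the transcription factor of interleukin 6 signalling (0.42, SE 0.14), the interleukin 1 receptor Il1r1 (0.38, SE 0.16) and the adaptor Myd88 (0.24, SE 0.11). Of 27 interferon response genes 3 were higher, with Ifit1 at 4.15, 4.76, 4.77, 4.43 and 5.10 in control and 4.99, 4.90, 5.22, 5.79 and 5.39 in exposed arrays, Rsad2 at 0.47 (SE 0.22) and Gbp2 at 0.34 (SE 0.16). The Ifit1 groups overlapped, and its difference was 0.62 (SE 0.19). Complement and coagulation genes were above 0 for 24 of 27, with C9 (0.25, SE 0.11) and Cfi (0.19, SE 0.088) at an unadjusted p under 0.05.

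**Figure D4:**
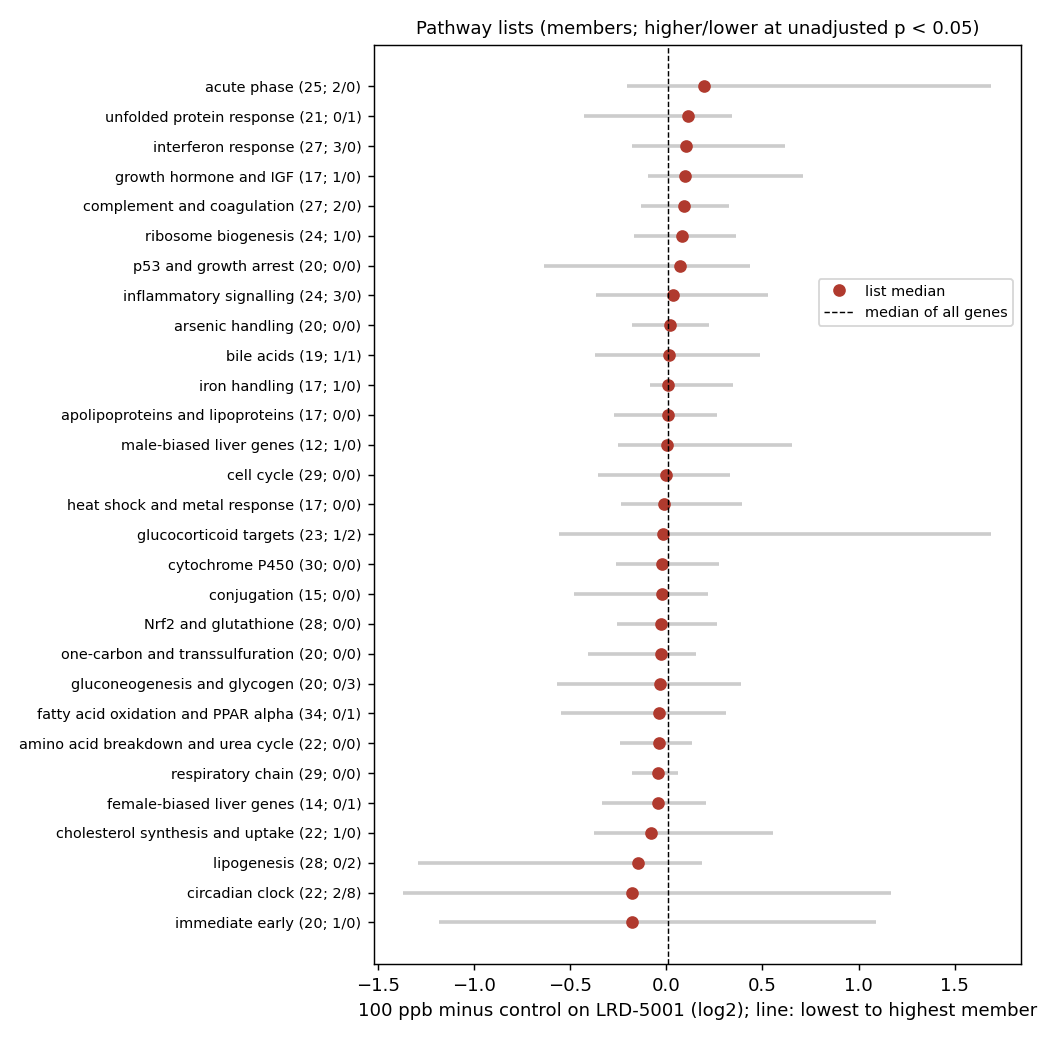
Median difference (red point) and range of members (grey line) between exposed and control livers on LRD-5001, in log2, for 29 pathway lists, with the number of measured genes and of those higher and lower at an unadjusted p under 0.05 in the row names. The clock list has 2 higher and 8 lower of 22, and the other lists have at most 3 in either direction.

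Markers of other liver cells were read in the same way. In whole tissue, fewer cells of a type and less RNA per cell cannot be told apart. All 13 Kupffer cell genes were above 0, with a median of 0.14, and their mean level per array ran from 6.36 to 6.66 in control and from 6.42 to 7.09 in exposed arrays. Among all genes 52.9% were above 0, and 62.9% among those with a mean of at least 4. Against the same control arrays, the Kupffer cell median was 0.15 at 10 ppb in water and 0.28 at 10 ppb in food. At 100 ppb on AIN-76A, relative to the controls of that diet, it was -0.405. Marco, a scavenger receptor of these macrophages, was 3.30, 3.09, 3.47, 3.66 and 3.59 in control and 4.21, 5.29, 3.78, 3.75 and 4.24 in exposed arrays. The groups did not overlap, exposed array B was the highest, and the difference was 0.83 (SE 0.39, unadjusted p = 0.0474 in limma). Clec4f, a marker of Kupffer cells, differed by 0.076 (SE 0.14), and Timd4 by 0.35 (SE 0.30). Their part in the immune values above was not tested. The 12 hepatocyte genes had a median of 0.0021, and the 14 stellate cell and fibroblast genes a median of 0.22 with 0 at an unadjusted p under 0.05. No T and NK cell gene of 12 and no bile duct gene of 7 had a mean of at least 4, and 1 of 11 neutrophil genes did. Of 12 pericentral hepatocyte genes 7 were above 0 and 5 below, with a median of 0.0075, and 2, Rhbg and Tbx3, were higher at an unadjusted p under 0.05. Rhbg, an ammonium transporter of pericentral hepatocytes, was 5.46, 5.59, 5.65, 5.39 and 5.42 in control and 5.71, 5.85, 6.30, 5.77 and 6.04 in exposed arrays, which did not overlap.

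The 100 ppb arrays were also set against the 5 arrays given 10 ppb in water, which asks whether the livers differed by dose. No probe set passed (0%), and 1150 of 45037, or 2.55%, had an unadjusted p under 0.05. Pim3, a serine/threonine kinase gene, was 9.25, 8.55, 8.53, 8.77 and 8.82 at 10 ppb and 7.73, 7.47, 7.54, 8.47 and 7.75 at 100 ppb, without overlap. The difference was -0.99 (SE 0.22, limma adjusted p = 1). Another probe set of Pim3 (-1.25) was the only one to pass when 1 array given 10 ppb, replicate D, was left out, with a limma adjusted p of 0.0447. St3gal5, the GM3 ganglioside synthase, differed by -0.53 (SE 0.11), and Gp6, Tmem182 and Hils1, which complete the 5 genes with the smallest p, were near the floor of the arrays. Among the clock genes Arntl, Npas2 and Bhlhe40 had an unadjusted p under 0.05 for dose, with 0.51 (SE 0.24) for Arntl, and Dbp was -0.58 (SE 0.32).

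Whether 100 ppb acted differently on the 2 diets was tested by the interaction of diet and exposure over the 39 arrays exposed for 5 weeks. No probe set passed (0%), the smallest adjusted p was 0.326, and 2757, or 6.12%, had an unadjusted p under 0.05. Slc16a5 was -0.46 on chow and 0.64 on AIN-76A. Pim3 was -0.61 and 1.61, Foxn3, a forkhead repressor, 0.31 and -0.90, and Nfkb2, the p100 subunit gene of NF-kappaB, -0.34 and 0.96. Leaving out 1 exposed array on AIN-76A, replicate A, gave 62 probe sets with an adjusted p under 0.05, 24 with a higher and 38 with a lower response on chow, among them Socs3, a feedback inhibitor of cytokine signalling (-3.86), Cdkn1a (-2.98) and Mt1 (-2.65). In that AIN-76A array Pim3 was 8.10, while the other 3 exposed arrays were between 8.41 and 10.63.

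On AIN-76A itself, 4 probe sets passed at 100 ppb (0.00888%), and the same probe sets gave small differences on chow. Those of Slc11a2 and Hacd3 were not the brightest probe sets of their genes, and that of Slc11a2 was dim, with a mean of 2.95. Slc11a2, a metal transporter, differed by 0.011 on chow (95% interval -0.17 to 0.20), Hacd3, an enzyme of fatty acid elongation, by 0.06 (-0.09 to 0.21), the carnitine transporter Slc22a5 by 0.11 (-0.22 to 0.44) and Arhgap26 by -0.001 (-0.54 to 0.53). Across the 7206 genes with a mean of at least 4, the differences on the 2 diets, which share no arrays, had a Pearson correlation of 0.097 and a Spearman correlation of 0.056, and 48.9% had the same sign. These are over genes, which are not independent replicates.

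**Figure D5:**
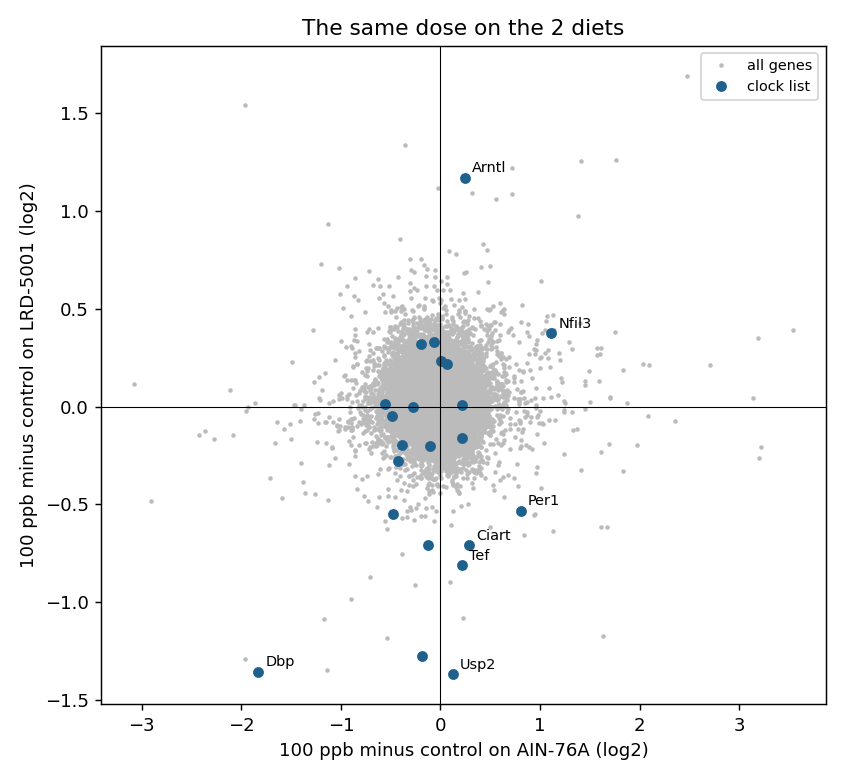
Difference at 100 ppb in water on AIN-76A (log2, horizontal axis) against that on LRD-5001 (log2, vertical axis) for all genes (grey) and the 22 clock genes (blue). Dbp is low on both diets, while Per1, Ciart and Tef lie below 0 on chow and above 0 on AIN-76A.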

How the data were processed

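The authors deposited log2 expression values per probe set, and RMA is the method that the submitters' processing notes list. For its settings the sources used here give nothing, so how strongly dim values were compressed is unknown, and no further normalization or filter was applied. A limma model (3.58.1, R 4.3.3) estimated group means from the 20 arrays on LRD-5001, and the interaction with diet came from the 39 arrays exposed for 5 weeks. Two-sided p-values were adjusted over 45037 probe sets (Benjamini-Hochberg), and 0.05 was the threshold. Gene symbols came from the platform annotation: 34945 probe sets tested had 1 symbol, of which 34741 were found in RefSeq, and 10092 had several or none and were not named. Where a gene had several probe sets, the one brightest on average across the 59 arrays stood for it. The rule for names covers the 24 genes of smallest p, up to 4 members per list, all arsenic handling and clock genes, and the 5 genes with the smallest p for dose and for diet; not all are given in the text. Other genes named were chosen after their values were seen. The members and lists were chosen with earlier results of these data known. The closest pair of chow arrays correlated by 0.994 and was no duplicate. The fit was run on simulated data with independent noise in each probe set. Such noise lacks the first component that the chow arrays hold, so the simulation cannot show how the fit behaves with it. Alternatives covered the arrays giving the spread, normalization, a filter at 4, the variance model, the replicate letter, the arrays that stood apart and leaving out each array of the groups compared.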

Additional observations from a re-analysis of the deposited data

Results flagged for a closer look

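Among 50 groups of 5 arrays that were checked, each for a reported gene or for the array upper quartile, 6 held an array whose gap to the nearest other, divided by the range of the group, was above the critical value of Dixon's test. Chance gives about 1 in 20. In controls, Naa25 was lowest in array B at 4.06 with the next at 4.50 (ratio 0.724), Prkcd was lowest in array D at 3.38 with the next at 3.67 (ratio 0.837), and Fgf11 was lowest in array C at 2.69 with the next at 2.98 (ratio 0.805). Thrsp was highest in control F at 11.46 with the next at 10.92 (ratio 0.803). In exposed livers, Arntl was highest in array F at 4.92 with the next at 4.19 (ratio 0.744). The upper quartile of all probe sets was lowest in exposed array D, at 3.97 with the next at 4.14 (ratio 0.713), and this is the exposed array that stood apart on the first component.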

How the results depend on the processing

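With limma, 0 probe sets passed at 100 ppb on chow in every setting run but one. With the spread from only the 10 arrays compared, 2 passed, both of Upp2. Leaving out each array of the groups compared in turn gave 0 calls each time for this comparison, 0 to 1 for 100 against 10 ppb in water and 0 to 62 for the interaction with diet. The 1 was a probe set of Pim3, without the 10 ppb water replicate D, and the 62 came without the AIN-76A exposed replicate A. The cause was not tested. At 100 ppb on chow, the number of probe sets at an unadjusted p under 0.05 was 1506, against 893 with arrays centred on their upper quartile, 1055 with the spread of 39 arrays, 2287 without the 4 arrays that stood apart and 2509 with them as a factor. With the replicate letter as a block in the fit (replicate block), 0 probe sets passed in any of these 3 comparisons, and 1301 had an unadjusted p under 0.05 at 100 ppb on chow. The deviations of control and exposed arrays with the same letter correlated by -0.096 for B, -0.072 for D, -0.29 for E and 0.14 for F. These gave no steady sign that the letters pair the arrays, but so few values cannot exclude it. The 24 genes with the smallest p kept their sign in every setting run. Since p chose them from these same arrays, which every setting uses again, this was close to fixed in advance and does not test them. With 5 arrays a group, their number limits the precision, and dim probe sets sit close to the floor of the arrays, where RMA compresses differences.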

Other observations

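Several genes outside the lists differed by more than 1 on the log2 scale between exposed and control livers on chow, and were chosen here for that size. Coq10b, which encodes a coenzyme Q binding protein of mitochondria, was 6.18, 6.54, 6.71, 6.85 and 7.43 in control and 5.78, 5.80, 5.14, 5.65 and 5.92 in exposed arrays, without overlap. Its difference was -1.08 (SE 0.29), and it was -0.52 at 10 ppb in water, -0.67 at 10 ppb in food and 0.22 (SE 0.40) at 100 ppb on AIN-76A. Rgs16, a regulator of G protein signalling, differed by -1.34 (SE 0.53) on chow and -1.14 on AIN-76A, and Slc41a2, a magnesium transporter gene, by 1.08 (SE 0.35) and 0.72. Slc25a30, a mitochondrial carrier gene, differed by 1.54 (SE 0.74) on chow and -1.96 on AIN-76A, and Scara5, a scavenger receptor gene, by 1.22 (SE 0.50) and 0.72. At 10 ppb in water and in food, against the same controls, Scara5 differed by 1.78 and 1.63 and Slc25a30 by 1.53 and 0.94. Slc41a2 differed there by 0.87 and 1.04, and Rgs16 by -1.04 and -0.73. None of these genes passed the adjusted threshold in limma.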
